A study of Mus musculus with 12 samples.

Results

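Interferon-stimulated and antiviral genes are described here in murine jejunal enteroids that lacked Hdac1 or Hdac2. The genes were a list of 55 symbols, taken by symbol from the deposited gene tables, and 53 of the 55 had a row among the 17972 genes counted in all 12 libraries. Gbp2 and Gbp3 had no row there, so their levels were not analysed here, while their promoters were among those searched for motifs. Of the 53 genes, 44 passed the count filter in the comparison of Hdac1-deleted with control enteroids, 46 in that of Hdac2-deleted with control enteroids and 48 in the direct comparison of the mutants. The list held 7 sensors and relays, 4 receptors, 5 transcription factors, 2 feedback inhibitors and 37 effector or other induced genes.

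Cells detect viral RNA with receptors such as TLR3 and the helicases MDA5 and RIG-I. These act through relays, MAVS for the helicases, on the factors IRF3 and IRF7 and so switch on interferon genes. Type I interferon acts through IFNAR1 and IFNAR2, type III interferon through IFNLR1, and type II interferon through IFNGR1, each with a partner chain or as a pair, and types I and III activate a complex with STAT2 and IRF9 that binds interferon-stimulated response elements in promoters. The induced genes encode proteins that sense or cut viral RNA, block translation, entry or budding, and tag proteins with ISG15. Intestinal epithelial cells respond strongly to type III interferon, and part of the set is transcribed at a low level without any infection.

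RNA-Seq counts were obtained from enteroids, epithelial organoids grown from jejunal crypts, that had been kept for 5 days in ENR medium, which supplies EGF, Noggin and R-spondin. Control enteroids carried villin-Cre, Hdac1-deleted enteroids lacked Hdac1 and Hdac2-deleted enteroids lacked Hdac2 through floxed alleles and the same Cre, which the villin promoter drives in the intestinal epithelium, and each of the 3 groups had 4 libraries. The mouse strain was C57BL/6 J X 129SV X CD1, and the methods name 1 mouse of each genotype as the source of crypts, so that genotype, mouse and enteroid line cannot be told apart and the p-values measure only the spread between these libraries. Neither infection nor added interferon is named in the labels.

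Each library held 20692613 to 30656263 counts over the 17972 genes, so that 3 counts corresponded to 0.0979 to 0.145 CPM, the usual unit of a count scaled to the size of its library. Hdac1 transcript was at 94.5, 88.0, 90.0 and 89.9 CPM in control libraries 1 to 4 and at 3.38, 3.66, 5.08 and 4.79 CPM in the Hdac1-deleted libraries (log2 fold change -4.40 ± 0.08, SE). Hdac2 transcript was at 140.0, 136, 132 and 140.0 CPM in control and at 77.9, 78.8, 73.7 and 73.2 CPM in the Hdac2-deleted libraries (-0.84 ± 0.04), a smaller drop. The authors report the deletion of each gene by RT-PCR, Western blot and immunofluorescence. The transcript of the other deacetylase was also lower in each mutant. Hdac2 was at 106 to 114 CPM in Hdac1-deleted libraries (-0.28 ± 0.04), and Hdac1 at 68.8 to 78.4 CPM in Hdac2-deleted libraries (-0.26 ± 0.04). All 6 epithelial markers of a marker list were present, with a summed level of 4560 to 5960 CPM. Markers of several cell types of the enteroids moved with the genotype: the sum of 7 enterocyte markers was 7790 to 8330 CPM in control, 15800 to 17900 CPM in Hdac1-deleted and 12500 to 14100 CPM in Hdac2-deleted libraries, that of 4 stem cell markers was 3350 to 3560, 1840 to 2160 and 1530 to 1710 CPM, and that of 6 Paneth cell markers was 2130 to 2480, 3100 to 3360 and 3380 to 3530 CPM. The sum of 6 goblet cell markers was 1580 to 1840, 1710 to 1840 and 2660 to 2890 CPM, so that Hdac1-deleted and control libraries overlapped. That of 5 enteroendocrine markers was 211 to 223, 248 to 281 and 256 to 280.0 CPM. Tuft cell markers, 3 of 4 with a row, summed to 3.25 to 4.56, 4.03 to 4.84 and 2.34 to 3.20 CPM. Of 11 leukocyte markers 3 had a row, with sums of 1.13 to 1.61, 2.27 to 3.41 and 2.56 to 3.52 CPM in the same order, mostly Itgam, while Ptprc did not pass 0.174 CPM in any library and the B cell, T cell and plasmacytoid dendritic cell markers of the list had no row. The part of these shifts in the results that follow was not tested, and in bulk RNA fewer cells of a type and less RNA per cell cannot be told apart.

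Per transcript length, the genes spanned from the barely detected to the abundant in control enteroids. The highest were Ifitm2 at 293 RPKM (CPM per kilobase of exon), Ifitm3 at 204 RPKM, both membrane proteins that restrict virus entry, and the interferon gamma receptor gene Ifngr1 at 64.1 RPKM. Trim25, an E3 ligase of the RIG-I pathway, followed at 23.4 RPKM, and Mavs at 18.6 RPKM. In all, 30 of 53 genes were at 1 RPKM or more, 10 lay between 0.1 and 1 RPKM and 13 were lower, with a median of 1.97 RPKM against 3.04 RPKM over the 17874 genes with a known length. In 4 genes (Oas1g, Oas2, Usp18 and Zbp1) no control library held more than 3 counts, so their control levels rest on few reads. Oas1g, with 1 read over the 4 control libraries, could hardly be told from 0 at this depth. The receptor and transcription factor genes all lay above 1 RPKM.

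**Figure D1:**
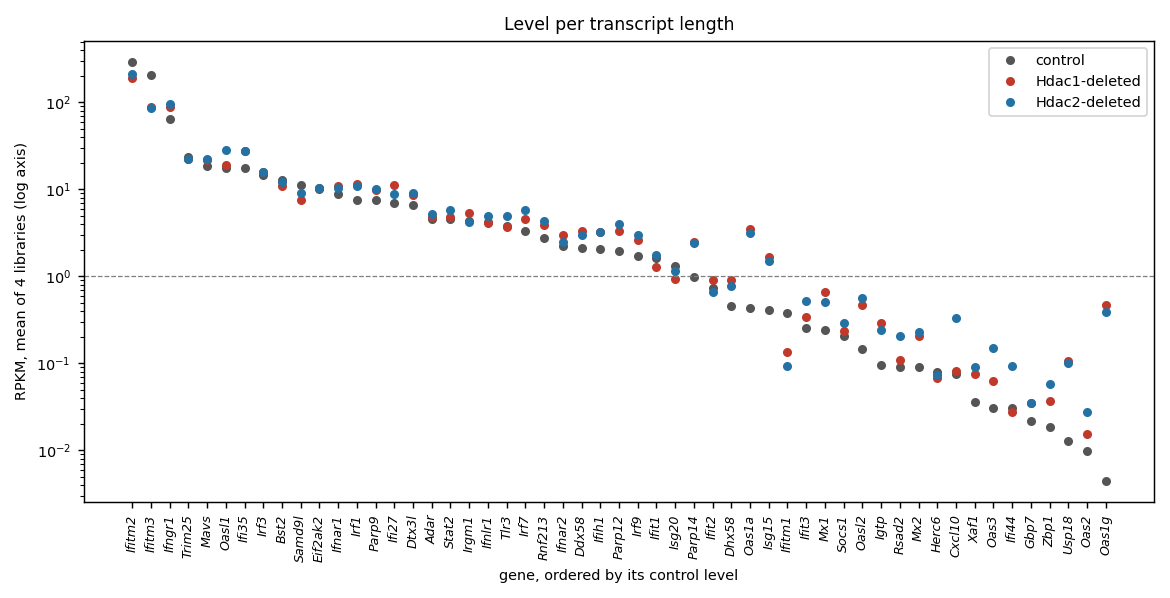
Mean RPKM of the 4 libraries of each group (log axis) for the 53 genes, ordered by the control level, with a dashed line at 1 RPKM. In control enteroids 30 genes lie at or above that line and 13 lie under 0.1 RPKM, and Oas1a, Oas1g and Isg15 stand far above their control points in both mutants.

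Loss of either deacetylase was accompanied by higher levels of many of these genes. With a call defined as an adjusted p of at most 0.05 (edgeR quasi-likelihood test, Benjamini-Hochberg over all genes tested) and a change of more than 2-fold, 9 of 44 genes (20.5%) rose in Hdac1-deleted enteroids, where 6.87% of all 14246 genes tested did, and 1 (2.3%) fell, against 3.71% of all genes. In Hdac2-deleted enteroids 13 of 46 genes (28.3%) rose, where 5.45% of 14007 genes did, and 1 (2.2%) fell, against 2.84%. Both comparisons share the 4 control libraries. Without a limit on the fold, 28 of 44 genes (63.6%) rose and 6 (13.6%) fell with Hdac1 loss, beside 32.7% and 31.9% of all genes, and 33 of 46 (71.7%) rose and 3 (6.5%) fell with Hdac2 loss, beside 31.4% and 30.9%. The median log2 fold change of the tested genes was 0.40 with Hdac1 loss and 0.49 with Hdac2 loss, while the medians over all genes were -0.004 and -0.0036, and 34 of 44 and 37 of 46 values were above 0. Genes with few reads could pass the filter through the group in which they were high, so these shares describe the genes measured and not the whole list.

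**Figure D2:**
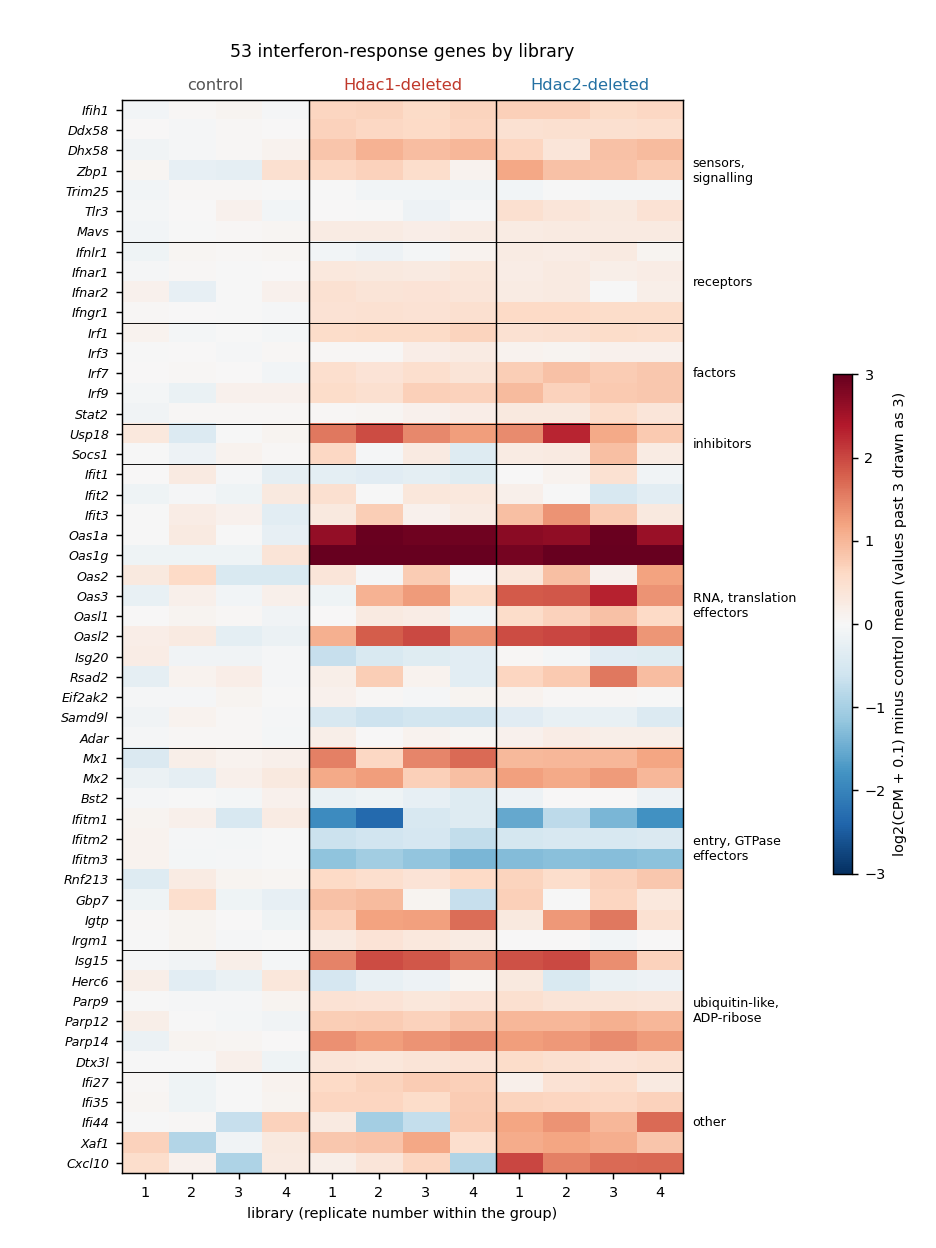
Each of the 53 genes (rows, grouped by role) in each of the 12 libraries (columns, replicate numbers 1 to 4 within a group), as log2(CPM + 0.1) minus the mean of the 4 control libraries, with red above and blue below control and values past 3 drawn as 3. Oas1a, Oas1g, Isg15 and Oasl2 are red in all 8 mutant libraries, Cxcl10 and Ifi44 are red in the 4 Hdac2-deleted libraries, and Ifitm2 and Ifitm3 are blue in all 8.

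**Figure D3:**
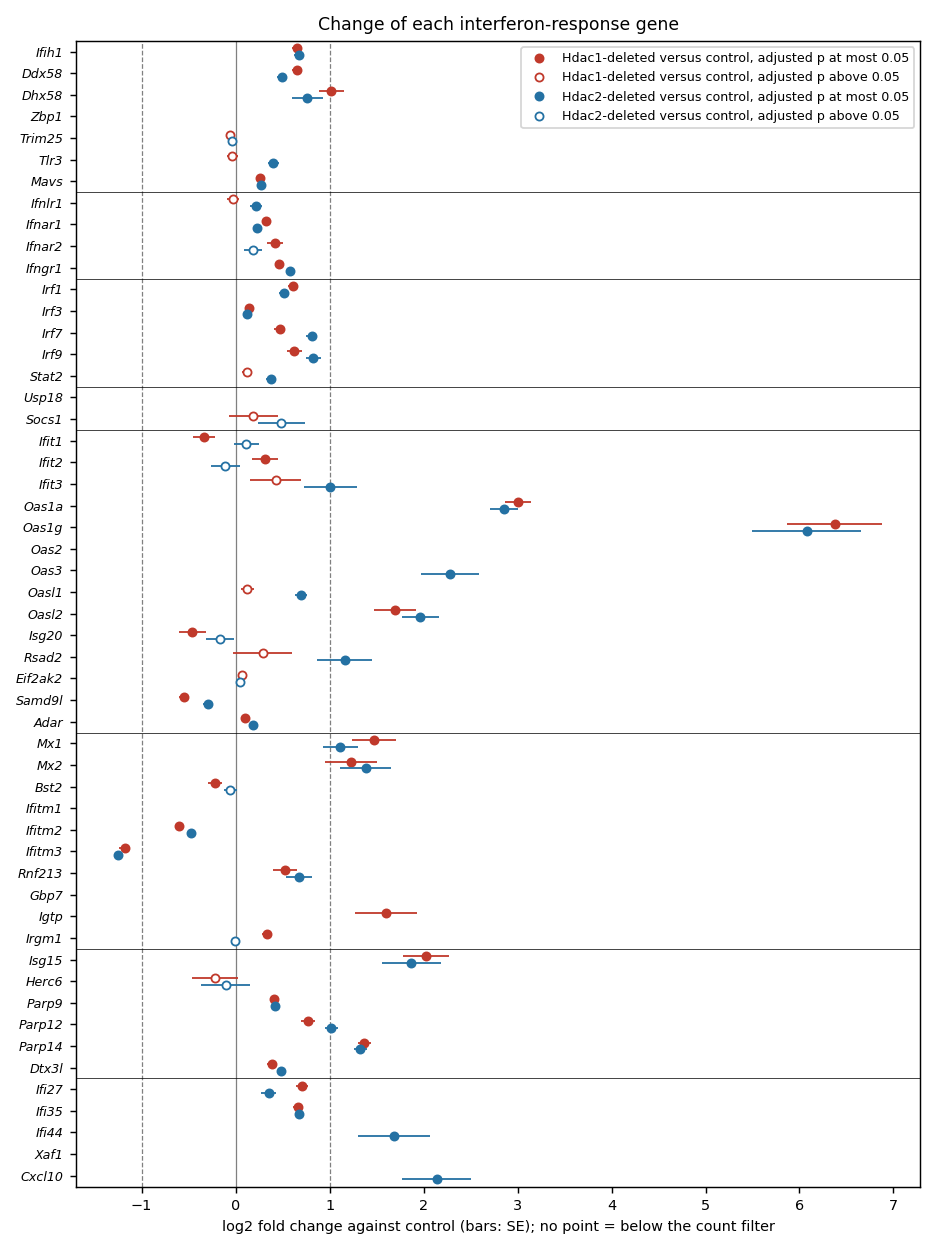
Log2 fold change against control with its SE for each gene, in Hdac1-deleted (red) and Hdac2-deleted (blue) enteroids, filled where the adjusted p was at most 0.05, with dashed lines at a 2-fold change and no point where the gene was below the count filter. Most filled points lie between 0 and 1, with Oas1g above 6 and Ifitm3 below -1 in both mutants.

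Promoter sequence is shown for 10 of the genes, because the letters of the interferon-stimulated response element stand in promoters of genes that rose, that did not pass the test and that fell. The core searched was GAAANNGAAA on both strands, with overlapping matches kept, in the 300 bases from 250 before to 50 after each start site (RefSeq, GRCm38.p6). A promoter was found for 46 of the 55 genes, and 21 of them (45.7%) held the core, against 3.99% of 27025 genes with a promoter in the same table. The gamma-activated site, TTCNNNGAA, was found in 13 of 46 (28.3%), against 9.55%. The list was drawn up as interferon-stimulated and antiviral genes, so these shares describe the list and are not a result of the libraries. Each window below holds 60 bases of the strand of the gene, 5′ to 3′, with the matches in capitals.
Oas1a (chr5:120907526-120907585, minus strand): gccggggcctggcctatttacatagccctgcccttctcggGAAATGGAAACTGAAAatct
Oas1g (chr5:120887614-120887673, minus strand): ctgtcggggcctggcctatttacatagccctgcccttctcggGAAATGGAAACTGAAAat
Isg15 (chr4:156200856-156200915, minus strand): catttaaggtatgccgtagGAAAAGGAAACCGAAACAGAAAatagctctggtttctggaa
Oas3 (chr5:120777700-120777759, minus strand): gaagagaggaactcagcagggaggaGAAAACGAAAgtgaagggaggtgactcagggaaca
Ifit3 (chr19:34583365-34583424, plus strand): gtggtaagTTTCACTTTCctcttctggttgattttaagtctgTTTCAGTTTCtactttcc
Rsad2 (chr12:26456538-26456597, minus strand): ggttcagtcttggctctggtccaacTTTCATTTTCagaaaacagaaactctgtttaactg
Cxcl10 (chr5:92349068-92349127, minus strand): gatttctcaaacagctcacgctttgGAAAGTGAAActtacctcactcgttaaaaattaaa
Igtp (chr11:58199496-58199555, plus strand): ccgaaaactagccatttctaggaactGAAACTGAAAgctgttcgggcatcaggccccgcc
Ifit1 (chr19:34640769-34640828, plus strand): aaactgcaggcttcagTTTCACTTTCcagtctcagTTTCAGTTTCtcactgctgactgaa
Ifitm2 (chr7:140955973-140956032, minus strand): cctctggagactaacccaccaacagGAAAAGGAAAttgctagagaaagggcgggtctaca

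The windows of Oas1a and Oas1g were almost the same, each with a pair of overlapping matches that ended 5 and 3 bases before the start, and Isg15 had 3 overlapping matches between 78 and 57 bases before its start. Ifit3 and Ifit1 each had 2 separate matches. Among genes that rose more than 2-fold, the core was present in 4 of 5 with a promoter after Hdac1 loss and in 7 of 10 after Hdac2 loss. Among genes that rose less than 2-fold it was present in 3 of 17 in either mutant, and among those that did not pass the test in 5 of 10 in either mutant. It was also present in genes that fell, 4 of 6 with Hdac1 loss (Ifit1, Bst2, Ifitm2 and Ifitm3) and 2 of 3 with Hdac2 loss (Ifitm2 and Ifitm3). A match is a description of letters, and says nothing on whether a factor was bound there. Promoters of Parp9, Mx1, Usp18, Oas2, Mx2, Parp14, Dhx58, Ifi27 and Zbp1 were not used here.

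Among the sensors and relays, 6 of 7 genes were tested, and 4 rose in Hdac1-deleted and 5 in Hdac2-deleted enteroids, beside 32.7% and 31.4% of all genes tested. Dhx58, which encodes LGP2, a helicase that regulates the other RIG-I-like receptors, was at 1.37, 1.45, 1.53 and 1.59 CPM in control libraries 1 to 4. Dhx58 stood at 2.74, 3.17, 2.92 and 3.05 CPM in the Hdac1-deleted libraries and at 2.36, 1.95, 2.81 and 2.95 CPM in the Hdac2-deleted libraries. All mutant libraries lay above all control libraries. The log2 fold change of Dhx58 was 1.02 ± 0.13 (SE, adjusted p = 1.5e-06) with Hdac1 loss and 0.76 ± 0.16 (SE, adjusted p = 3.9e-04) with Hdac2 loss, and without control library 1 or without Hdac1-deleted library 2 the former was 0.98, just under the 2-fold limit. Ifih1, the gene of the double-stranded RNA sensor MDA5, rose by a similar log2 value in both mutants, 0.66 ± 0.05 (SE, adjusted p = 1.8e-09) and 0.67 ± 0.06 (SE, adjusted p = 1.2e-09). Ddx58, which encodes RIG-I, rose by 0.66 ± 0.05 (SE, adjusted p = 1.0e-09) and 0.49 ± 0.05 (SE, adjusted p = 4.4e-08), and it was higher in Hdac1-deleted than in Hdac2-deleted libraries by a log2 difference of 0.16 ± 0.05 (SE, adjusted p = 0.0076). Mavs, the mitochondrial adaptor of these helicases, changed little in size, by 0.26 ± 0.04 and 0.27 ± 0.04, but passed the test in both. Tlr3, the endosomal receptor for double-stranded RNA, was at 18.7 to 21.5 CPM in control, 17.7 to 20.1 CPM in Hdac1-deleted and 24.3 to 27.5 CPM in Hdac2-deleted libraries. Tlr3 rose in Hdac2-deleted enteroids, by 0.40 ± 0.06 (SE, adjusted p = 2.3e-06), and the log2 difference between the mutants was -0.44 ± 0.06 (SE, adjusted p = 3.9e-07). Trim25 gave -0.05 ± 0.04 (SE, adjusted p = 0.19) and -0.04 ± 0.03 (SE, adjusted p = 0.31). Zbp1, a sensor of Z-form nucleic acid, was below the filter with 7 counts in all control, 15 in all Hdac1-deleted and 20 in all Hdac2-deleted libraries. A fit without the filter gave Zbp1 1.01 with Hdac1 loss (adjusted p = 0.2) and 1.66 with Hdac2 loss (adjusted p = 0.023). Between the mutants it gave -0.66 (adjusted p = 0.34).

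The 4 receptor genes moved by less than 1 on the log2 scale, and 3 of 4 rose in each mutant, where 32.7% and 31.4% of all genes did. Ifngr1, a chain of the interferon gamma receptor, was at 188, 183, 180.0 and 178 CPM in control libraries 1 to 4. Ifngr1 stood at 247, 249, 248 and 253 CPM in the Hdac1-deleted libraries and at 274, 274, 267 and 265 CPM in the Hdac2-deleted libraries. The 3 groups did not overlap and stood in the order control, Hdac1-deleted, Hdac2-deleted. Ifngr1 rose by 0.46 ± 0.03 (SE, adjusted p = 4.8e-11) and 0.58 ± 0.03 (SE, adjusted p = 1.7e-13), with a log2 difference between the mutants of -0.12 ± 0.03 (SE, adjusted p = 0.0013). Ifnar1, a chain of the type I interferon receptor, was at 50.9, 53.5, 52.1 and 53.0 CPM in control libraries 1 to 4. Ifnar1 stood at 64.8, 64.5, 63.4 and 66.3 CPM in the Hdac1-deleted libraries and at 60.7, 62.7, 58.9 and 61.3 CPM in the Hdac2-deleted libraries. Its rise was 0.32 ± 0.04 (SE, adjusted p = 2.9e-07) with Hdac1 loss and 0.23 ± 0.04 (SE, adjusted p = 1.9e-05) with Hdac2 loss, and the Hdac1-deleted libraries were the highest (between the mutants, 0.09 ± 0.04 SE, adjusted p = 0.043). Ifnar2, its partner chain, was at 8.08, 6.26, 7.36 and 8.14 CPM in control libraries 1 to 4. Ifnar2 stood at 10.2, 9.71, 9.93 and 9.65 CPM in the Hdac1-deleted libraries and at 8.85, 8.99, 7.31 and 8.33 CPM in the Hdac2-deleted libraries. Ifnar2 rose with Hdac1 loss, by 0.42 ± 0.08 (SE, adjusted p = 1.9e-04), whereas with Hdac2 loss the libraries overlapped with control and the value was 0.19 ± 0.09 (SE, adjusted p = 0.089). The direct log2 difference was 0.23 ± 0.08 (SE, adjusted p = 0.026). Ifnlr1, the specific chain of the type III interferon receptor, was at 16.2, 18.4, 18.0 and 18.3 CPM in control libraries 1 to 4. Ifnlr1 stood at 16.6, 16, 16.9 and 19.1 CPM in the Hdac1-deleted libraries and at 20.9, 20.7, 21.5 and 18.6 CPM in the Hdac2-deleted libraries. Here the Hdac1-deleted libraries overlapped with control, at -0.03 ± 0.06 (SE, adjusted p = 0.69), and the gene rose with Hdac2 loss, by 0.22 ± 0.06 (SE, adjusted p = 0.0038). The direct log2 difference of Ifnlr1 was -0.25 ± 0.06 (SE, adjusted p = 0.0022). Ifnar2 and Ifnlr1 therefore differed between the mutants in opposite directions, both by small amounts.

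Of the 5 transcription factor genes, 4 rose with Hdac1 loss and 5 with Hdac2 loss, none by more than 2-fold, beside 32.7% and 31.4% of all genes that rose at any size. Irf7, the factor that amplifies interferon gene expression and is itself interferon-induced, was at 12.8, 13, 12.8 and 11.9 CPM in control libraries 1 to 4. Irf7 stood at 17.9, 16.7, 18.0 and 16.5 CPM in the Hdac1-deleted libraries and at 21.1, 23.2, 21.5 and 22 CPM in the Hdac2-deleted libraries. The groups did not overlap, with Hdac2-deleted highest. The log2 fold changes of Irf7 were 0.47 ± 0.06 (SE, adjusted p = 9.9e-07) and 0.81 ± 0.06 (SE, adjusted p = 7.1e-11), and the difference between the mutants was -0.34 ± 0.05 (SE, adjusted p = 9.3e-06). Irf9, the DNA-binding part of the complex with STAT2, was at 8.79, 7.85, 9.98 and 9.93 CPM in control libraries 1 to 4. Irf9 stood at 13.3, 12.8, 14.9 and 14.8 CPM in the Hdac1-deleted libraries and at 17.7, 14.8, 15.7 and 16.1 CPM in the Hdac2-deleted libraries. It rose by 0.63 ± 0.08 (SE, adjusted p = 1.3e-06) and 0.83 ± 0.08 (SE, adjusted p = 1.1e-08), with mutant libraries that overlapped each other and a direct difference of -0.20 ± 0.08 (SE, adjusted p = 0.029). Stat2, another subunit of the complex, was at 24.7, 27.6, 27.2 and 27.6 CPM in control libraries 1 to 4. Stat2 stood at 27.2, 27.8, 29.3 and 30.8 CPM in the Hdac1-deleted libraries and at 32.6, 32.8, 38.5 and 34.5 CPM in the Hdac2-deleted libraries. The value for Hdac1 loss was 0.12 ± 0.05 (SE, adjusted p = 0.055), which missed the threshold, and Stat2 rose with Hdac2 loss by 0.38 ± 0.06 (SE, adjusted p = 5.4e-06). Between the mutants it differed by -0.26 ± 0.06 (SE, adjusted p = 4.0e-04).

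Irf1, a factor induced by interferon gamma and by inflammatory signals, was at 32.8, 29.0, 30.2 and 29.3 CPM in control libraries 1 to 4. Irf1 stood at 44.3, 44.8, 45.4 and 48.3 CPM in the Hdac1-deleted libraries and at 41.6, 42.6, 44.3 and 43.4 CPM in the Hdac2-deleted libraries. Every mutant library lay above every control library, and the log2 fold changes were 0.61 ± 0.05 (SE, adjusted p = 8.6e-10) and 0.51 ± 0.05 (SE, adjusted p = 3.3e-09). The direct log2 difference was 0.09 ± 0.04 (SE, adjusted p = 0.09), which missed the threshold. Irf3, the constitutive factor that the sensors activate, was at 49.6, 50.6, 49.2 and 51.8 CPM in control libraries 1 to 4. Irf3 stood at 51.4, 51.7, 57.3 and 59.8 CPM in the Hdac1-deleted libraries and at 54.2, 52.9, 55.4 and 55.2 CPM in the Hdac2-deleted libraries. Its rise was small, 0.15 ± 0.05 (SE, adjusted p = 0.013) and 0.12 ± 0.04 (SE, adjusted p = 0.0071). In the direct comparison Irf7, Irf9 and Stat2 were thus higher in Hdac2-deleted enteroids, and Irf1 and Irf3 did not pass the test. Of the feedback inhibitors, Socs1, which blocks Janus kinases, gave 0.19 ± 0.26 (SE, adjusted p = 0.54) and 0.48 ± 0.25 (SE, adjusted p = 0.096). Usp18, which removes ISG15 and blocks the type I receptor, was below the filter with 4 counts in all control, 35 in all Hdac1-deleted and 28 in all Hdac2-deleted libraries, a ratio per read of 8.56 (exact 95% interval 3.06 to 33.2) and 8.04 (2.81 to 31.5), which covers counting error only. A fit without the filter gave Usp18 2.94 (adjusted p = 2.0e-04) and 2.86 (adjusted p = 9.0e-04), values that depend on the prior count.

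The oligoadenylate synthetase genes held the largest fold changes of the list. OAS enzymes bind double-stranded RNA and make a second messenger that activates RNase L, and Oas2, Oas3, Oas1g and Oas1a lie in 1 cluster on chr5:120730333-120907521. Oas1a (chr5:120896256-120907521, minus strand) was at 0.805, 0.990, 0.796 and 0.668 CPM in control libraries 1 to 4. Oas1a stood at 5.55, 7.03, 6.72 and 6.78 CPM in the Hdac1-deleted libraries and at 5.79, 5.67, 6.97 and 5.34 CPM in the Hdac2-deleted libraries. All 8 mutant libraries were at least 5.34 CPM and no control library passed 0.990 CPM. Oas1a rose by a log2 value of 3.00 ± 0.14 (SE, adjusted p = 3.5e-13) with Hdac1 loss and 2.86 ± 0.15 (SE, adjusted p = 5.7e-13) with Hdac2 loss, and the mutants overlapped (0.15 ± 0.10 SE, adjusted p = 0.26). Oas1g was detected by a single read in the 4 control libraries together, and was at 1.16, 1.13, 1.08 and 0.979 CPM in the Hdac1-deleted and 0.701, 0.977, 0.823 and 1.17 CPM in the Hdac2-deleted libraries. The totals of 1, 126 and 88 counts gave a ratio per read to control of 123 (exact 95% interval 21.7 to 4910) and 101 (17.7 to 4040), and the fitted log2 fold changes were 6.37 ± 0.50 (SE, adjusted p = 1.0e-09) and 6.08 ± 0.58 (SE, adjusted p = 1.0e-08), which depend on the prior count. Oas1a and Oas1g are near copies: 40.9% of the 100-base windows of the annotated Oas1a transcripts and 31.3% of those of Oas1g (GENCODE M21) occur in the other gene, so the split of reads between them is uncertain.

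Oas3 was at 0.168, 0.248, 0.199 and 0.250 CPM in control libraries 1 to 4. Oas3 stood at 0.188, 0.550, 0.656 and 0.363 CPM in the Hdac1-deleted libraries and at 1.03, 1.05, 1.45 and 0.694 CPM in the Hdac2-deleted libraries. All 4 Hdac2-deleted libraries lay above all control libraries, and the Hdac1-deleted libraries overlapped with control. The log2 fold change with Hdac2 loss was 2.28 ± 0.31 (SE, adjusted p = 1.8e-06), Oas3 was below the filter in the comparison of Hdac1-deleted with control libraries, and the direct log2 difference of Hdac1-deleted from Hdac2-deleted libraries was -1.22 ± 0.29 (SE, adjusted p = 0.0012). Oas3 passed the filter in the other fits through the Hdac2-deleted libraries, in which it was high. The direction of those values, against control too, is thus not independent of the filter. In a fit without the filter Oas3 gave 1.05 with Hdac1 loss (adjusted p = 0.026). Without Hdac1-deleted library 1, the lowest of its group, the direct log2 difference between the mutants was -0.98 and no longer past 2-fold. Oas2 had 5 counts in all control, 8 in all Hdac1-deleted and 12 in all Hdac2-deleted libraries, which is too few for a comparison. Oasl2, an OAS-like protein with ubiquitin-like domains, was at 1.07, 1.13, 0.730 and 0.793 CPM in control libraries 1 to 4. Oasl2 stood at 2.03, 3.46, 3.93 and 2.50 CPM in the Hdac1-deleted libraries and at 3.87, 3.99, 4.26 and 2.43 CPM in the Hdac2-deleted libraries. It rose by 1.70 ± 0.22 (SE, adjusted p = 1.9e-06) and 1.97 ± 0.19 (SE, adjusted p = 1.9e-08), and the mutants did not differ past the threshold (-0.27 ± 0.19 SE, adjusted p = 0.26). Its neighbour Oasl1 on chr5:114896936-114937915, a translation inhibitor of Irf7 in mice, was at 42.8 to 48.7 CPM in control, 43.6 to 55.6 CPM in Hdac1-deleted and 68.4 to 85.5 CPM in Hdac2-deleted libraries. Oasl1 gave 0.12 ± 0.07 (SE, adjusted p = 0.14) with Hdac1 loss and rose by 0.69 ± 0.06 (SE, adjusted p = 3.4e-07) with Hdac2 loss, and the direct log2 difference was -0.57 ± 0.09 (SE, adjusted p = 1.4e-04).

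**Figure D4:**
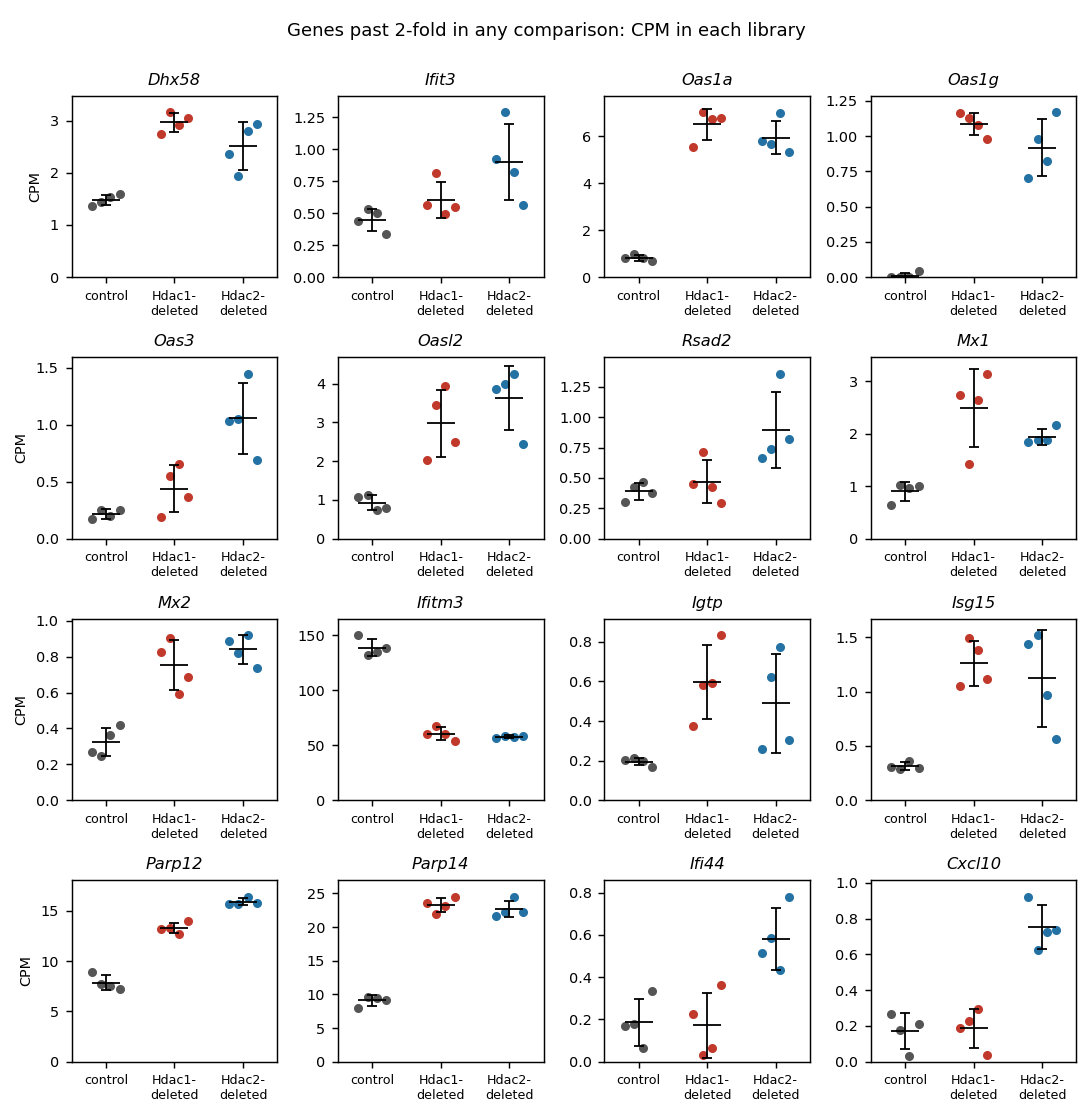
CPM in each library (points, from 0) with the mean and SD of the 4 libraries of each group (black bars) for the 16 genes that passed the 2-fold call in any comparison. Oas1a, Oas1g, Oasl2, Isg15, Mx1, Mx2 and Parp14 are higher in both mutants, Oas3, Ifi44 and Cxcl10 are highest in Hdac2-deleted libraries, and Ifitm3 drops from 132 to 150.0 CPM in control to 53.7 to 67.6 CPM in the mutants.

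The Ifit genes, of which Ifit1 encodes a protein that binds viral RNA without host cap marks, moved apart from each other. Yet Ifit2, Ifit3 and Ifit1 lie together on chr19:34550694-34650009. Ifit3 was at 0.436, 0.530, 0.497 and 0.334 CPM in control libraries 1 to 4. Ifit3 stood at 0.563, 0.810, 0.492 and 0.544 CPM in the Hdac1-deleted libraries and at 0.922, 1.29, 0.823 and 0.564 CPM in the Hdac2-deleted libraries. Ifit3 rose with Hdac2 loss by 1.01 ± 0.28 (SE, adjusted p = 0.004), a value that fell to 0.78 without Hdac2-deleted library 2, to 0.90 without control library 4 and to 0.98 without control library 1, under the 2-fold limit in each. With Hdac1 loss it was 0.43 ± 0.27 (SE, adjusted p = 0.17). A share of 31.7% of the windows of its transcripts also occurs in Ifit3b, so these reads may be split between the copies. Ifit1 was at 3.51 to 5.20 CPM in control, 3.30 to 3.47 CPM in Hdac1-deleted and 3.95 to 5.90 CPM in Hdac2-deleted libraries. It fell with Hdac1 loss, with a log2 fold change of -0.33 ± 0.12 (SE, adjusted p = 0.018), gave 0.11 ± 0.13 (SE, adjusted p = 0.47) with Hdac2 loss, and differed between the mutants by -0.45 ± 0.13 (SE, adjusted p = 0.0052). Ifit2 rose with Hdac1 loss by 0.31 ± 0.13 (SE, adjusted p = 0.047), with libraries that overlapped with control, and gave -0.11 ± 0.15 (SE, adjusted p = 0.55) with Hdac2 loss. The median log2 fold change of all tested genes of chromosome 19 was -0.52 with Hdac1 loss and -0.51 with Hdac2 loss, against 0.01 for the other genes in both, and its part in the Ifit values was not tested.

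Rsad2, which encodes viperin, an enzyme that makes a chain-terminating nucleotide, was at 0.302, 0.424, 0.464 and 0.376 CPM in control libraries 1 to 4. Rsad2 stood at 0.450, 0.712, 0.426 and 0.290 CPM in the Hdac1-deleted libraries and at 0.664, 0.742, 1.36 and 0.824 CPM in the Hdac2-deleted libraries. The Hdac1-deleted libraries overlapped with control (0.29 ± 0.31 SE, adjusted p = 0.43), and all Hdac2-deleted libraries lay above it (1.16 ± 0.29 SE, adjusted p = 0.0016). Hdac2-deleted library 3 was the highest, and without it the log2 fold change was 0.92. The direct log2 difference was -0.88 ± 0.29 (SE, adjusted p = 0.015). Samd9l, a restriction factor of poxviruses, fell in either mutant, with values of -0.55 ± 0.05 (SE, adjusted p = 3.2e-09) and -0.29 ± 0.05 (SE, adjusted p = 5.3e-05), from 56.8 to 65.4 CPM in control to 39.3 to 43.4 CPM and 45.5 to 52.2 CPM. Isg20, an RNA exonuclease gene, gave -0.46 ± 0.15 (SE, adjusted p = 0.0097) with Hdac1 loss, a fall, and -0.17 ± 0.15 (SE, adjusted p = 0.33) with Hdac2 loss. Eif2ak2, which encodes PKR, the kinase that stops translation on double-stranded RNA, was at 49.6 to 53.8 CPM in control and 50.1 to 55.7 CPM in the 8 mutant libraries, with values of 0.07 ± 0.04 (SE, adjusted p = 0.17) and 0.05 ± 0.04 (SE, adjusted p = 0.28). Adar, the RNA-editing enzyme gene, rose by 0.10 ± 0.04 and 0.19 ± 0.04 (adjusted p = 0.05 and 6.9e-04), and 16.8% of its exon bases overlap Chrnb2 on the other strand. In this group of 14 genes, 5 of 12 tested rose and 3 fell with Hdac1 loss, and 8 of 13 rose and 1 fell with Hdac2 loss. Of all genes tested 32.7% rose and 31.9% fell with Hdac1 loss, so the group was near the background there, and 31.4% rose and 30.9% fell with Hdac2 loss.

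The Mx genes encode dynamin-like GTPases that trap viral nucleoproteins, and lie together on chr16:97447035-97560900. Mx1 was at 0.637, 1.03, 0.962 and 1.00 CPM in control libraries 1 to 4. Mx1 stood at 2.74, 1.42, 2.65 and 3.15 CPM in the Hdac1-deleted libraries and at 1.84, 1.88, 1.89 and 2.17 CPM in the Hdac2-deleted libraries. The mutant libraries were all above control. Mx1 rose by 1.47 ± 0.23 (SE, adjusted p = 2.4e-05) and 1.11 ± 0.19 (SE, adjusted p = 2.7e-05), and without control library 1, the lowest control, the value for Hdac2 loss was 0.97. Mx2, annotated by GENCODE as a polymorphic pseudogene, was at 0.268, 0.248, 0.365 and 0.417 CPM in control libraries 1 to 4. Mx2 stood at 0.825, 0.907, 0.590 and 0.689 CPM in the Hdac1-deleted libraries and at 0.885, 0.821, 0.920 and 0.738 CPM in the Hdac2-deleted libraries. Again no mutant library overlapped with control, with rises of 1.23 ± 0.28 (SE, adjusted p = 6.3e-04) and 1.39 ± 0.27 (SE, adjusted p = 1.6e-04). Neither Mx gene passed the test between the mutants (Mx1 0.35 ± 0.19 SE, adjusted p = 0.14, and Mx2 -0.16 ± 0.23 SE, adjusted p = 0.61). Igtp, an immunity-related GTPase gene, was at 0.201, 0.212, 0.199 and 0.167 CPM in control libraries 1 to 4. Igtp stood at 0.375, 0.583, 0.590 and 0.834 CPM in the Hdac1-deleted libraries and at 0.258, 0.625, 0.774 and 0.304 CPM in the Hdac2-deleted libraries. No mutant library overlapped with control. Igtp rose with Hdac1 loss by 1.60 ± 0.33 (SE, adjusted p = 3.1e-04), and was below the filter in the comparison of Hdac2-deleted with control, where a fit without the filter gave 1.28 (adjusted p = 0.011). With 4 to 6 counts in each control library, Igtp passed the filter through the Hdac1-deleted libraries, in which it was high. The direction of its rise is thus not independent of the filter. Irgm1, a regulator of these GTPases, rose with Hdac1 loss by 0.33 ± 0.05 (SE, adjusted p = 9.4e-06) and gave -0.004 ± 0.05 (SE, adjusted p = 0.95) with Hdac2 loss, and the log2 difference between the mutants was 0.33 ± 0.05 (SE, adjusted p = 2.8e-06). Rnf213, a large E3 ligase gene, rose by 0.53 ± 0.13 (SE, adjusted p = 0.0069) and 0.67 ± 0.14 (SE, adjusted p = 0.0042). Gbp7, a guanylate-binding protein gene, was below the filter in all comparisons.

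The interferon-induced transmembrane genes went the other way. Ifitm3 (chr7:141009586-141010770, minus strand), whose protein blocks virus fusion in endosomes, was at 150.0, 132, 135 and 138 CPM in control libraries 1 to 4. Ifitm3 stood at 59.8, 67.6, 60.5 and 53.7 CPM in the Hdac1-deleted libraries and at 56.3, 58.5, 57.4 and 58.6 CPM in the Hdac2-deleted libraries. The lowest control library, at 132 CPM, was well above the highest mutant library, at 67.6 CPM. Ifitm3 fell, with log2 fold changes of -1.18 ± 0.06 (SE, adjusted p = 2.1e-10) and -1.25 ± 0.04 (SE, adjusted p = 1.2e-16), and the mutants overlapped (0.07 ± 0.06 SE, adjusted p = 0.33). Ifitm2 (chr7:140954837-140955987, minus strand) was at 185 to 207 CPM in control, 115 to 135 CPM in Hdac1-deleted and 134 to 141 CPM in Hdac2-deleted libraries, and fell less, with -0.60 ± 0.05 (SE, adjusted p = 4.2e-09) and -0.47 ± 0.03 (SE, adjusted p = 1.6e-10). Of its exon bases, 40.9% are shared with another annotated gene on the same strand, so its counts may be incomplete. Ifitm1, between them, was at 0.436, 0.460, 0.265 and 0.501 CPM in control libraries 1 to 4. Ifitm1 stood at 0.0375, 0, 0.262 and 0.290 CPM in the Hdac1-deleted libraries and at 0.0737, 0.195, 0.0968 and 0.0434 CPM in the Hdac2-deleted libraries. It was below the filter, and a fit without the filter gave log2 fold changes of -1.45 (adjusted p = 0.024) and -1.94 (adjusted p = 0.0011). Summed over the 3 genes, the level was 318.6 to 357.7 CPM in control, 169.1 to 196.6 CPM in Hdac1-deleted and 190.7 to 199.6 CPM in Hdac2-deleted libraries, while the sum of all 53 genes was 1386.3 to 1401.3, 1475.7 to 1478.3 and 1554.3 to 1575.8 CPM. Bst2, which encodes tetherin, a protein that holds budding virus at the cell surface, fell with Hdac1 loss, with -0.22 ± 0.07 (SE, adjusted p = 0.012), and gave -0.06 ± 0.07 (SE, adjusted p = 0.51) with Hdac2 loss.

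In the group of 6 genes of ISG15 conjugation and ADP-ribosylation, 5 rose in each mutant, beside 32.7% and 31.4% of all genes tested. The gene that did not pass the test was Herc6, of ISG15 conjugation. Isg15 (chr4:156199424-156200818, minus strand), the ubiquitin-like modifier, was at 0.302, 0.283, 0.365 and 0.292 CPM in control libraries 1 to 4. Isg15 stood at 1.05, 1.49, 1.38 and 1.12 CPM in the Hdac1-deleted libraries and at 1.44, 1.52, 0.968 and 0.564 CPM in the Hdac2-deleted libraries. Its control libraries lay between 0.283 and 0.365 CPM, below every mutant library, and the Hdac2-deleted libraries were the more spread. The log2 fold changes of Isg15 were 2.02 ± 0.24 (SE, adjusted p = 4.0e-07) and 1.87 ± 0.32 (SE, adjusted p = 2.8e-05), and the direct difference of 0.15 ± 0.23 (SE, adjusted p = 0.64) missed the threshold. Parp14, a mono-ADP-ribosyltransferase gene, was at 8.01, 9.65, 9.52 and 9.18 CPM in control libraries 1 to 4. Parp14 stood at 23.5, 21.9, 23.2 and 24.5 CPM in the Hdac1-deleted libraries and at 21.7, 22.3, 24.5 and 22.2 CPM in the Hdac2-deleted libraries. With narrow groups that did not overlap, it rose by 1.37 ± 0.07 (SE, adjusted p = 5.1e-13) and 1.33 ± 0.07 (SE, adjusted p = 4.2e-13), and the mutants gave 0.04 ± 0.06 (SE, adjusted p = 0.59). Parp12, another member of this enzyme family, was at 8.92, 7.74, 7.56 and 7.22 CPM in control libraries 1 to 4. Parp12 stood at 13.2, 13.3, 12.7 and 14 CPM in the Hdac1-deleted libraries and at 15.7, 15.7, 16.4 and 15.8 CPM in the Hdac2-deleted libraries. The 3 groups of Parp12 did not overlap. It rose by 0.77 ± 0.07 (SE, adjusted p = 2.0e-08) and 1.02 ± 0.07 (SE, adjusted p = 5.1e-11), and was lower in Hdac1-deleted than in Hdac2-deleted libraries by a log2 difference of -0.25 ± 0.06 (SE, adjusted p = 0.0021). Without control library 3 or 4 the value for Hdac2 loss was 0.99 or 0.98, under the 2-fold limit. Parp9 and Dtx3l, which encode an ADP-ribosyltransferase and its E3 ligase partner and lie beside Parp14 on chr16:35832874-35972605, rose less, Parp9 by 0.41 ± 0.04 and 0.42 ± 0.04 and Dtx3l by 0.39 ± 0.05 and 0.49 ± 0.05. Herc6, the ISG15 ligase gene of mice, gave -0.22 ± 0.25 (SE, adjusted p = 0.46) and -0.11 ± 0.26 (SE, adjusted p = 0.74).

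Among the other induced genes, Cxcl10, a chemokine that attracts T cells, was at 0.268, 0.177, 0.0332 and 0.209 CPM in control libraries 1 to 4. Cxcl10 stood at 0.188, 0.227, 0.295 and 0.0363 CPM in the Hdac1-deleted libraries and at 0.922, 0.625, 0.726 and 0.738 CPM in the Hdac2-deleted libraries. The Hdac2-deleted libraries were all above the others, while Hdac1-deleted and control libraries covered the same range. Cxcl10 rose with Hdac2 loss by 2.14 ± 0.37 (SE, adjusted p = 3.8e-05), and the log2 difference of Hdac1-deleted from Hdac2-deleted libraries was -1.97 ± 0.38 (SE, adjusted p = 1.3e-04). Ifi44, a gene induced by type I interferon, was at 0.168, 0.177, 0.0663 and 0.334 CPM in control libraries 1 to 4. Ifi44 stood at 0.225, 0.0324, 0.0656 and 0.363 CPM in the Hdac1-deleted libraries and at 0.516, 0.586, 0.436 and 0.781 CPM in the Hdac2-deleted libraries. As for Cxcl10, the Hdac2-deleted libraries lay above all others and the Hdac1-deleted and control libraries overlapped. The log2 values of Ifi44 were 1.69 ± 0.39 (SE, adjusted p = 7.7e-04) for Hdac2 loss and -1.79 ± 0.45 (SE, adjusted p = 0.002) between the mutants. Both were below the filter in the comparison of Hdac1-deleted with control libraries, where a fit without it gave 0.16 for Cxcl10 (adjusted p = 0.83) and -0.11 for Ifi44 (adjusted p = 0.89). In the other fits Cxcl10 and Ifi44 passed the filter through the Hdac2-deleted libraries, in which they were high. The direction of those values, against control too, is thus not independent of the filter. Ifi27, an interferon-induced membrane protein gene, rose by 0.70 ± 0.07 (SE, adjusted p = 1.4e-08) and 0.35 ± 0.08 (SE, adjusted p = 6.6e-04), and was higher in Hdac1-deleted libraries by a log2 difference of 0.35 ± 0.07 (SE, adjusted p = 2.7e-04). Ifi35 rose by 0.67 ± 0.05 (SE, adjusted p = 8.3e-10) and 0.67 ± 0.05 (SE, adjusted p = 4.8e-11), though 16.8% of its exon bases have an antisense gene. Xaf1, an apoptosis gene, was below the filter against control in both mutants, and a fit without it gave 1.05 (adjusted p = 0.048) and 1.31 (adjusted p = 0.013).

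The direct comparison of the mutants asked which of these genes responded unequally to the loss of each deacetylase. Past 2-fold, 0 of 48 genes were higher in Hdac1-deleted enteroids, against 2.74% of 14510 genes, with DESeq2 also calling 0, and 7 were higher at an unadjusted p under 0.05 of any size, 0 of them past 2-fold. Lower past 2-fold were 3 of 48 (6.2%), Cxcl10, Ifi44 and Oas3, against 2.89%. These 3 genes were below the filter in the comparison of Hdac1-deleted with control libraries. They entered this test through the Hdac2-deleted libraries, in which they were high, so their direction here is not independent of the filter. At any size, 6 (12.5%) were higher in Hdac1-deleted enteroids (Ddx58, Ifi27, Ifit2, Ifnar1, Ifnar2 and Irgm1), against 22.3%, and 15 (31.2%) were lower, against 23.7%. The 15 were Cxcl10, Ifi44, Ifit1, Ifitm2, Ifngr1, Ifnlr1, Irf7, Irf9, Oas3, Oasl1, Parp12, Rsad2, Samd9l, Stat2 and Tlr3. The median log2 difference of the 48 genes was -0.11, with 17 above 0, beside 0.01 over all genes. Oas1a, Oas1g, Isg15, Oasl2, Mx1, Mx2 and Parp14 did not pass the test between the mutants, with differences between -0.27 ± 0.19 and 0.35 ± 0.19 on the log2 scale.

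Other genes of the pathway, a list of 86 that holds none of the genes above, were counted in the same fits. Of 11 interferon ligand genes in it, 0 had a row in either table, so the ligands were not analysed here. With Hdac1 loss 35 of 52 tested genes of the list rose and 9 fell, beside 32.7% and 31.9% of all genes. With Hdac2 loss 34 of 52 rose and 8 fell, beside 31.4% and 30.9%. Past 2-fold 6 rose and 1 fell in each mutant, where 6.87% and 3.71% of all genes did with Hdac1 loss and 5.45% and 2.84% with Hdac2 loss. Between the mutants 8 of 53 were higher and 15 lower in Hdac1-deleted enteroids, beside 22.3% and 23.7%, and 1 and 2 of them were past 2-fold, beside 2.74% and 2.89%, so the list was near the background. In both mutants Ifi47, an immunity-related GTPase gene, rose from 0.0260 ± 0.0337 CPM (mean and SD, n = 4) in control to 1.66 ± 0.182 CPM with Hdac1 loss and 0.549 ± 0.134 CPM with Hdac2 loss, and differed between them by a log2 value of 1.56 ± 0.23 (SE, adjusted p = 3.8e-06). Its totals were 3 counts in control, 192 in Hdac1-deleted and 54 in Hdac2-deleted libraries. The control level of Ifi47 thus rests on few reads, and it passed the filter through the mutant libraries. Slfn2, a Schlafen family gene, was at 0.321 ± 0.129, 0.564 ± 0.145 and 4.59 ± 0.295 CPM, and the mutants differed by -3.0 ± 0.18 (SE, adjusted p = 3.1e-13). The genes Ifit1bl2, Apol9a, Rtp4 and Ddx60 rose past 2-fold in either mutant. Their log2 fold changes were 1.14 ± 0.10, 2.50 ± 0.42, 1.40 ± 0.31 and 1.23 ± 0.13 with Hdac1 loss and 1.62 ± 0.07, 2.78 ± 0.41, 1.88 ± 0.34 and 1.50 ± 0.14 with Hdac2 loss. Apol9a had 10 and Rtp4 29 counts over all control libraries, so their values rest on few reads. Ikbke, a kinase gene that acts upstream of IRF3, rose by 1.17 ± 0.06 (SE, adjusted p = 1.9e-11) and 0.75 ± 0.04 (SE, adjusted p = 2.7e-12). Ifit1bl1, a neighbour of Ifit1, fell with Hdac1 loss (-0.78 ± 0.10 SE, adjusted p = 1.0e-06) and rose with Hdac2 loss (0.64 ± 0.13 SE, adjusted p = 5.5e-04). Cd274, which encodes the checkpoint ligand PD-L1 and lies on chromosome 19, fell from 4.75 ± 0.572 to 1.15 ± 0.122 and 1.58 ± 0.368 CPM, with log2 fold changes of -2.03 ± 0.14 and -1.59 ± 0.15.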

How the data were processed

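The authors mapped 100-base read pairs with STAR (2.4.0f1 in their processing notes) against GRCm38. The counting program and its use of strand are not given in the sources used here. They deposited whole-number read counts per gene, 1 table per mutant with the same 4 control libraries, in which the lowest summed count of a listed gene was 10. The deposited normalized scores, rounded, and the authors' log2 fold change, average log2 CPM and p-value columns from DESeq and edgeR were not used.

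Here, the counts were tested with edgeR 4.0.16 in R 4.3.3 (quasi-likelihood F test, robust, TMM, filterByExpr, Benjamini-Hochberg over all tested genes). Each mutant and control made a fit of 8 libraries, and the mutants were compared in a fit of all 12. Groups came from the labels. As SE, each log2 fold change was divided by √F. CPM used TMM factors of 0.9799 to 1.0222, and RPKM the union of GENCODE M21 exons. Genes were called past 2-fold with adjusted p no higher than 0.05. Alternatives were DESeq2 1.42.0, other scalings, filters and limits, a replicate block and leaving out each library. Libraries of a group differed by more than sampling noise.

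The genes, lists, motifs and tests were chosen with earlier results of these data known. Values per library were given for genes called in any comparison and for receptors and transcription factors, and by range for other genes. Other pathway genes were named where called.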

Additional observations from a re-analysis of the deposited data

Results flagged for a closer look

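In 8 of 159 groups of 4 libraries, 1 library stood apart from the other 3 by Dixon's test, close to the 1 in 20 groups that chance gives. Mx1 was at 0.637 CPM in control library 1 (the others at 0.962 to 1.03 CPM) and at 2.17 CPM in Hdac2-deleted library 4 (1.84 to 1.89 CPM). Stat2 was at 24.7 CPM in control library 1 (27.2 to 27.6 CPM). Bst2 was at 12.6 CPM in control library 4 (11.1 to 11.4 CPM). Irgm1 was at 23.4 CPM in Hdac2-deleted library 3 (24.9 to 25.0 CPM), and Socs1 at 1.21 CPM in the same library (0.737 to 0.742 CPM). Gbp7 was at 0.212 CPM in control library 2 (0.0835 to 0.101 CPM), and Oas1g at 0.0417 CPM in control library 4, which is 1 read, with no read in the other control libraries.

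Between the mutants, 3 genes differed past 2-fold in the test of the difference itself, each lower in Hdac1-deleted than in Hdac2-deleted enteroids in 4 of 4 libraries, with log2 differences of -1.22 for Oas3 (adjusted p = 0.0012), -1.79 for Ifi44 (adjusted p = 0.002) and -1.97 for Cxcl10 (adjusted p = 1.3e-04). All 3 were at or under 1.45 CPM in every library. They passed the count filter through the Hdac2-deleted libraries, in which they were high, so their direction is not independent of the filter.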

How the results depend on the processing

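The 2-fold calls of these genes depended most on the limits. Without the limit on the fold, 28 genes rose and 6 fell with Hdac1 loss, beside 32.7% and 31.9% of all genes tested. With Hdac2 loss 33 rose and 3 fell, beside 31.4% and 30.9%. In Hdac1-deleted enteroids 6 were higher and 15 lower than in Hdac2-deleted enteroids, beside 22.3% and 23.7%. The share of all genes called is not given for the alternative fits that follow. Counts from those fits describe the list alone and are not set against a background. Without the count filter, which changed the set of genes tested, 12 genes rose and 2 fell past 2-fold with Hdac1 loss, and 17 rose and 2 fell with Hdac2 loss. Gained were Usp18 (2.94), Oas3 (1.05), Xaf1 (1.05) and Ifitm1 (-1.45) with Hdac1 loss, and Zbp1 (1.66), Usp18 (2.86), Xaf1 (1.31), Igtp (1.28) and Ifitm1 (-1.94) with Hdac2 loss. Leaving out 1 library at a time gave 8 to 11 genes up and 1 to 2 down with Hdac1 loss, 12 to 14 up and 1 to 2 down with Hdac2 loss, and 0 up and 2 to 4 down between the mutants. The second gene down was Ifitm1, which passed the filter without control library 3 or Hdac1-deleted library 3 or 4, and without control library 3 or any 1 Hdac2-deleted library. Scaling by library size alone put Parp12 (0.99) and Ifit3 (0.98) under the 2-fold limit for Hdac2 loss, as did a fit of all 12 libraries for Ifit3 (0.998). That fit gained Oas3 (1.05) and Xaf1 (1.05) with Hdac1 loss, 11 up in all, and Xaf1 (1.31) and Igtp (1.27) with Hdac2 loss, 14 up in all. Rsad2 passed the 2-fold limit between the mutants without Hdac1-deleted library 2 (-1.15) or Hdac2-deleted library 1 (-1.004).

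Same-numbered libraries of different groups had correlations of their deviations of -0.148 to 0.161, and the best match of a library had its own number in 10 of 24 cases. Their median was 0.0721 between the mutants, 0.0315 between control and Hdac2-deleted and -0.0158 between control and Hdac1-deleted libraries. For different numbers the medians were -0.0163, -0.0222 and -0.0043. The numbers were not taken as pairs, though these values do not exclude a weak pairing. With the replicate block 9 genes rose and 1 fell with Hdac1 loss, 13 and 1 with Hdac2 loss, and 0 and 3 between the mutants, as without it. At any size the block moved 3 values for Hdac1 loss across the adjusted p of 0.05: Adar (0.10, adjusted p = 0.077), Ifit2 (0.31, adjusted p = 0.052) and Oasl1 (0.12, adjusted p = 0.047). It moved no other single value across the threshold.

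Of 2124 values of single genes under all alternatives, 2030 kept their direction and side of the threshold, 49 were weaker, 17 stronger and 28 reversed. The 28 belong to 15 values near 0, none of which passed the adjusted p of 0.05 as reported. Library size alone reversed the log2 difference between the mutants of Ifi35 (0.0187), Ifih1 (0.0101), Mavs (0.014), Parp9 (0.0152) and Trim25 (0.0103). Leaving out 1 library gave ranges with Hdac1 loss of -0.0851 to 0.0016 for Ifnlr1, -0.0098 to 0.3463 for Socs1 and -0.0608 to 0.0047 for Tlr3. With Hdac2 loss they were -0.3083 to 0.0178 for Herc6, -0.0045 to 0.2141 for Ifit1 and -0.0221 to 0.0175 for Irgm1. Between the mutants they were -0.0086 to 0.0388 for Eif2ak2, -0.2355 to 0.0915 for Herc6, -0.045 to 0.0202 for Ifi35, -0.0462 to 0.0025 for Ifih1, -0.0216 to 0.056 for Irf3, -0.0655 to 0.3302 for Isg15 and -0.0242 to 0.0085 for Parp9. The cause was not tested.

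Depth limits the rare genes: 20 of 53 were under 1 CPM in control on average, where their fold changes rest on few reads. Intervals of ratios per read cover counting error only.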
